A study of Mus musculus with 2 samples.

Results

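The lysosomal genes described here are 45 genes for cathepsins and other proteases, glycosidases, sulfatases, lipid hydrolases, acid phosphatases and proteins of the lysosomal membrane. They were chosen by function, with transgenic against C57BL6/N differences of these same arrays already known, so every difference between the arrays is a description. A probe belonged to a gene when its RefSeq accession, without version, mapped to the gene's symbol. By that rule 44 of the 45 genes had a probe, and Cd68 was not analysed here. The 44 genes were read by 56 of the 39429 probes on the array, all well above background on both arrays and none saturated, so that no gene passed a filter through 1 array alone. In all, 15495 genes with a symbol were measured on both arrays.

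The samples were whole lung of C57BL6/N mice aged 6 weeks and labelled male, taken 14 days after bleomycin at 1.25 mg/kg was given into the trachea. Bleomycin injures the alveoli and leads to scarring. One sample was plain C57BL6/N lung. The other came from transgenic C57BL6/N mice overexpressing HSP27, the small heat shock protein that the gene Hspb1 encodes. The promoter and the species of the transgene and the number of animals behind each sample are not given in the sources used here, and no untreated lung was analysed here. There was 1 array per group, so there is no spread between animals, no p-value and no group test, and precision is limited by having so few arrays.

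Lysosomes are the acidic compartments in which cells break down proteins, glycans, glycosaminoglycans and lipids taken up from outside or delivered by autophagy. Most of their enzymes are made as precursors, tagged with mannose 6-phosphate and sorted from the Golgi, and the loss of single enzymes causes storage diseases. Transcription factors of the MiT/TFE family, with TFEB as the best known, bind an extended E-box in the promoters of many lysosomal genes. In the lung these genes are strongly used by macrophages, which clear surfactant and dead cells, and alveolar type 2 cells store surfactant in lamellar bodies, which are related to lysosomes.

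Some facts of the arrays bear on every value below. Both arrays lay on 1 slide and were read in 1 scan. The 75th percentile of signal was 1286 in C57BL6/N and 1424 in transgenic lung, and each array was scaled by it before differences were taken. The probe for Hspb1 read 41040 and 53554, a log2 difference of 0.24, and may not report the transgene. Both samples are labelled male. The 2 probes for Xist, which female cells transcribe from their silenced X, had signals of 521 and 330 in C57BL6/N lung. In transgenic lung neither stood well above background, which puts them at least 46.2-fold and 29.3-fold lower there. Log2 differences of Y-linked genes were 2.11 for Ddx3y, 1.91 for Eif2s3y and 1.93 for Uty. Kdm5d stood above background in transgenic lung alone, but its signal there, 13.6, was near the lowest above background on that array, 12.5. That puts Kdm5d at least 1.03-fold higher there and no more can be said of it. In C57BL6/N lung Ddx3y (508), Eif2s3y (800) and 1 of 2 Uty probes (17.1) were also well above background, so that sample gave both Xist and Y-linked signal. Xist thus goes against the label of the C57BL6/N sample, and with 1 array per group no value can be given without it. Markers of the lung were present on both arrays, with all 10 alveolar type 2 and all 9 endothelial markers well above background. Heart muscle and fat markers were far brighter on the transgenic array, with medians of 3.84 over 8 and 3.63 over 4 measured markers.

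Most of the lysosomal genes were somewhat higher in the transgenic lung. Of the 44 measured, 35 (79.5%) had a difference above 0, where 46.1% of all measured genes did. Under 1 of 11 alternative processings, a normexp background correction fitted on all spots, 16 were above 0, where 64.4% of all genes were. The median log2 difference was 0.30 over the lysosomal genes and -0.04 over all measured genes. At 1.5-fold, a log2 difference of 0.58, 7 genes (15.9%) were higher, and 10.3% of all genes were. No lysosomal gene was at least 1.5-fold lower, where 8.27% of all genes were. At 2-fold the counts were 0 higher and 0 lower, against 3.82% and 1.87% of all genes. The differences ran from -0.49 for Ids to 0.99 for Ctsd, and the quartiles were 0.12 and 0.47, so most differences were under 1.5-fold. In whole lung, a change in the number of cells of a type and a change in RNA per cell cannot be told apart.

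**Figure D1:**
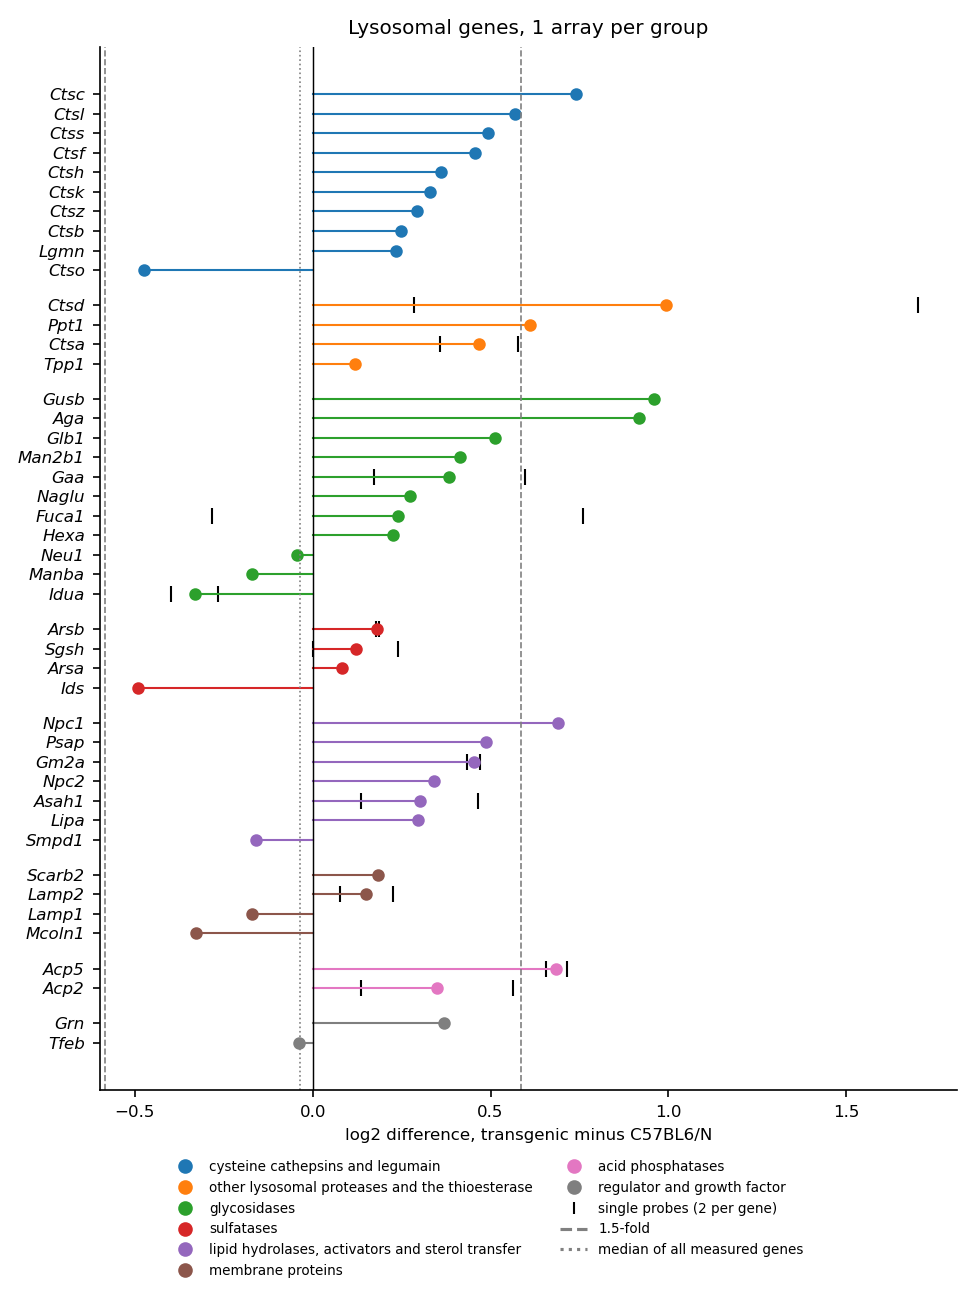
Log2 difference (transgenic minus C57BL6/N, x axis) of each measured lysosomal gene, grouped and coloured by role. Filled points are gene values over all probes, and black ticks the separate probes of genes with 2 probes. Most points lie right of 0 and of the dotted median of all genes (-0.04), 7 lie past the dashed line at 1.5-fold on the right and none past that on the left.

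The 7 genes past 1.5-fold came from 5 of the 8 roles. They were Ctsd, Gusb, Aga, Ctsc, Npc1, Acp5 and Ppt1. Just inside 1.5-fold were Npc1 (1.61-fold), Acp5 (1.61-fold) and Ppt1 (1.53-fold), and just outside were Ctsl (1.48-fold), Glb1 (1.43-fold) and Ctss (1.41-fold), so 1.5-fold divides an unbroken run of values. The spread between repeat spots of 1 probe on these arrays, expressed as the SD of a log2 difference of single spots, was 0.17 for dim probes, 0.09 for middling ones and 0.09 for bright ones. That spread is technical and covers neither animals nor RNA preparation.

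Gusb and Aga were read most often, since each was printed in 10 spots per array. Gusb encodes beta-glucuronidase, which removes glucuronic acid from glycosaminoglycans and is often taken as a reference gene. Before scaling, its 10 spots read 3319 to 3639 (median 3474) in C57BL6/N lung and 6864 to 7855 (median 7470) in transgenic lung. After scaling the transgenic array was 1.95-fold higher, a log2 difference of 0.96. Aga encodes aspartylglucosaminidase, which cuts the link between asparagine and N-glycans during the breakdown of glycoproteins. Before scaling, its spots read 591 to 654 (median 615) in C57BL6/N lung and 1228 to 1402 (median 1297) in transgenic lung. The scaled difference of Aga was 0.92 (1.89-fold). The SD over the log2 values of the 10 spots was 0.04 and 0.06 for Gusb and 0.05 and 0.05 for Aga, far below either difference, but all spots of an array share 1 RNA sample.

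The cysteine cathepsins and legumain are the papain-like enzymes and the asparaginyl protease that cut proteins at acidic pH. Of these 10 genes, 1 was at least 1.5-fold higher, where 10.3% of all genes were. A difference above 0 was seen in 9 (46.1% of all genes had one), and the median was 0.35. Ctsc, the dipeptidyl peptidase that activates the serine proteases of neutrophil and mast cell granules, read 8062 in C57BL6/N and 14908 in transgenic lung. Its difference of 0.74 (1.67-fold) was the only one of this role past 1.5-fold. Ctsl, an endopeptidase of most cells, read 28667 and 47064 (0.57). Ctss, which processes the invariant chain of MHC class II in antigen-presenting cells, read 69240 and 107782 (0.49). Both were higher on the transgenic array and stayed below 1.5-fold.

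Ctsk, the collagenase of osteoclasts that fibroblasts of scarred lung can also make, read 16031 and 22323 (0.33). Ctsh, an aminopeptidase abundant in alveolar type 2 cells, read 95342 and 135635 (0.36). The other members of this role with positive differences lay between 0.24 for Lgmn and 0.46 for Ctsf, with Ctsb at 0.25 and Ctsz at 0.29. Ctso alone of this role was below 0, with 227 in C57BL6/N and 181 in transgenic lung, a difference of -0.48.

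The other proteases and the thioesterase Ppt1 had the highest median of the 8 roles, 0.54. Ctsd, the main aspartic protease of lysosomes, had the largest value of all 44 genes, but its 2 probes disagreed. One read 91584 in C57BL6/N and 123506 in transgenic lung, a difference of 0.28. The other read 1914 and 6892, a difference of 1.70. The mean of 0.99 (1.99-fold) therefore rests on the dimmer probe, and the brighter probe alone puts Ctsd below 1.5-fold. Ppt1, which removes palmitate from proteins and is lost in an infantile neuronal storage disease, read 447 and 755 (0.61, 1.53-fold). Ctsa, the carboxypeptidase that protects beta-galactosidase and sialidase, had probes at 0.58 and 0.36, and the tripeptidyl peptidase Tpp1 was at 0.12.

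Glycosidases, which trim sugars from glycoproteins, glycolipids and glycosaminoglycans, went both ways. Of 11, 8 had a difference above 0 and 2, Gusb and Aga, were past 1.5-fold, with a median of 0.27. Among all measured genes 46.1% were above 0 and 10.3% at least 1.5-fold higher. Glb1, the beta-galactosidase behind the staining of senescent cells, read 1493 and 2358 (0.51). Man2b1, an alpha-mannosidase, read 12540 and 18512 (0.42). Naglu, of heparan sulfate breakdown, was at 0.27 and Hexa, a subunit of beta-hexosaminidase, at 0.23.

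Fuca1 and Gaa each had a bright and a dim probe. For Fuca1, the alpha-fucosidase, the bright probe read 6192 in C57BL6/N and 11601 in transgenic lung (0.76), and the dim probe read 58.0 and 52.8 (-0.28). The probes thus lay on either side of 0, and the mean of 0.24 describes neither. For Gaa, which degrades glycogen, the bright probe was at 0.17 and the dim one at 0.60. Among the 12 lysosomal genes with 2 probes, Ctsd and Fuca1 were the 2 whose probes differed by at least 1.5-fold, and over all 4073 genes with more than 1 usable probe this held for 18.8%. The glycosidases below 0 were Idua at -0.33, with both probes below 0, Manba at -0.17 and the sialidase Neu1 at -0.05.

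Among 4 sulfatases, which take sulfate from glycosaminoglycans and sulfatides, 0 were past 1.5-fold, where 10.3% of all genes were higher and 8.27% lower. Arsa was at 0.08, Arsb at 0.18 and Sgsh at 0.12. Ids, the iduronate sulfatase of heparan and dermatan sulfate breakdown, read 2754 in C57BL6/N and 2171 in transgenic lung, a difference of -0.49 and the lowest of the 44 genes. Idua acts next to Ids in the same pathway and was also below 0, whereas Gusb, Naglu and Sgsh of that pathway were above it. Ids and Lamp2 are X-linked, and Xist signal differed between the arrays. Lamp2 was at 0.15, and 455 X-linked measured genes had a median of -0.09 with quartiles of -0.36 and 0.18. The part of the sex-linked difference in these values was not tested.

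Of 7 genes of lipid breakdown, 1 was at least 1.5-fold higher, where 10.3% of all genes were. A difference above 0 was seen in 6, where 46.1% of all genes had one, and the median was 0.34. Npc1, the membrane protein that moves cholesterol out of lysosomes, read 518 and 923 (0.69, 1.61-fold), and its soluble partner Npc2 read 41302 and 57879 (0.34). Psap, the precursor of the saposins that present sphingolipids to their hydrolases, read 17025 and 26404 (0.49). The GM2 activator Gm2a had both probes between 0.43 and 0.47, the acid ceramidase Asah1 was at 0.30 and the acid lipase Lipa at 0.30. Smpd1, the acid sphingomyelinase, was at -0.16.

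Membrane proteins lay on both sides of 0. Lamp1, a main glycoprotein of the lysosomal membrane, read 125904 in C57BL6/N and 123918 in transgenic lung, which is -0.17 after scaling. Its relative Lamp2 was at 0.15 and Scarb2, which carries glucocerebrosidase to lysosomes, at 0.18. Mcoln1, a calcium channel of the lysosomal membrane, read 9551 and 8431 (-0.33). The median over these 4 genes was -0.01, close to that of all genes.

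Acid phosphatases and regulators complete the list. Acp5, the tartrate-resistant phosphatase of osteoclasts and of macrophages in injured lung, had 2 probes that read 27962 and 48766 (0.66) and 21482 and 39005 (0.71). They gave the same direction and nearly the same size, 1.61-fold on average. Acp2, the housekeeping acid phosphatase, had probes at 0.14 and 0.56. Grn, which encodes progranulin, a secreted growth factor that also acts within lysosomes, read 13158 and 18821 (0.37). Tfeb read 468 and 505, a difference of -0.04, as was the median of all genes. Its RNA says nothing of where the protein lies in the cell.

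**Figure D2:**
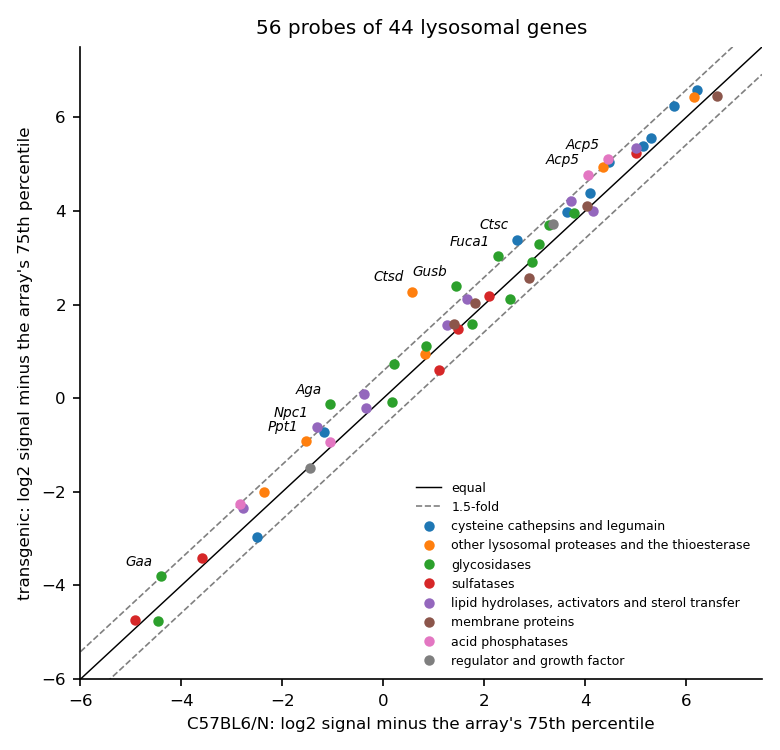
Scaled log2 signal of the 56 lysosomal probes on the C57BL6/N array (x axis) and the transgenic array (y axis), coloured by role. Probes past the dashed 1.5-fold lines are named, all of them above the diagonal, and the probes span the range of signal from dim (Arsb, at -4.93 on the C57BL6/N array) to bright (Lamp1, at 6.61).

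Other genes of the lysosome were read from 7 lists. Beside the counts of these lists stand the shares over all measured genes. Of all genes 10.3% were at least 1.5-fold higher, 8.27% at least 1.5-fold lower and 46.1% above 0. Among 29 measured further hydrolases the median was 0.13, with 23 above 0, 1 at least 1.5-fold higher and 0 lower. The exception past 1.5-fold was lysozyme (Lyz2), a bactericidal enzyme of macrophages and type 2 cells, which read 24676 and 44486 (0.70). Further membrane proteins and transporters spread more widely, with a median of 0.13 over 32, of which 6 passed 1.5-fold upwards and 1 downwards. The 3 highest were Slc11a1, the metal transporter of macrophage phagosomes, at 1.17 (891 and 2213), Laptm4b at 1.05 and the nucleoside transporter Slc29a3 at 0.95. The channel Mcoln3 was the lowest at -0.89. None of the 4 genes of the membrane protein role above was past 1.5-fold. Npc1, also a membrane protein and past 1.5-fold at 0.69, was counted under lipid breakdown. The difference between the shares was not tested.

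The machinery that builds and feeds lysosomes lay near all genes. Subunits of the proton pump that acidifies lysosomes had a median of 0.03 over 19, with Atp6v0d1 at 0.81 and Atp6v1h at 0.64 past 1.5-fold and 0 lower. Genes of enzyme sorting and maturation, such as the mannose 6-phosphate receptors, had a median of -0.09 over 28. Cystatins and other inhibitors of cathepsins had a median of -0.10 over 12, with 0 higher and 1 lower (Cst8 at -0.93). The secreted inhibitor Cst3 was at 0.38 and the cytosolic Cstb at 0.54.

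Regulators and autophagy genes lay on both sides of 0. Over all genes 10.3% were at least 1.5-fold higher and 8.27% lower. Factors of lysosome biogenesis and nutrient sensing had a median of 0.06 over 21, with 2 higher and 1 lower. Tfec, a relative of TFEB found in myeloid cells, was at 0.83 and Mtor at 0.80, while Zkscan3, a repressor of lysosomal and autophagy genes, was at -0.68. Tfe3 was at 0.16 and Mitf at 0.04, the latter with probes at -0.39 and 0.46. Autophagy genes had a median of -0.09 over 27, with 3 higher and 1 lower. The cargo receptor Sqstm1 was at 0.77, Atg3 at 0.68 and Gabarap at 0.61, with Gabarap probes at 0.21 and 1.02, and Atg9a was at -0.83.

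Cell markers differed between the same arrays. Of 17 measured markers of monocytes and recruited macrophages, 12 passed 1.5-fold upwards and 0 downwards. Their median was 0.93, and they ran from 0.02 for Cx3cr1 to 2.42 for C1qb. All 17 were well above background on both arrays, and their summed signal, in multiples of the array's 75th percentile, was 93.9 in C57BL6/N and 179 in transgenic lung. Of 11 resident alveolar macrophage markers, 1 was higher (Cidec at 0.63, with probes at 0.24 and 1.02, also a fat cell gene) and 4 lower, which were Krt79 at -1.97, Fabp1 at -1.41, Siglecf at -0.83 and Marco at -0.78. The summed signal was 146 on both arrays, most of it from Chil3 (117493 and 127995) and Ear2 (30534 and 45001). The median of the recruited list lay above that of the lysosomal genes (0.30) and that of the resident list, at -0.02, below it. The part of either cell type in the lysosomal values was not tested.

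Markers of other cells that use particular lysosomal genes also differed. The shares over all genes were 10.3% at least 1.5-fold higher, 8.27% at least 1.5-fold lower and 46.1% above 0. Osteoclast and giant cell markers, set beside Acp5 and Ctsk, had a median of 0.16 over 10, with Dcstamp, a receptor needed for cell fusion, at 0.82 and Nfatc1 lowest at -0.55, and a summed signal of 9.57 and 8.24. Neutrophil markers, beside Ctsc, had 2 of 10 higher and 2 lower, from -1.27 for Cxcr2 to 1.22 for Mmp8, with a summed signal of 49.4 and 40.9. Of 4 measured mast cell markers 2 were lower, Kit at -0.72 and Tpsb2 at -0.61, and Cpa3 was highest at 0.35, with a summed signal of 6.99 and 4.29. Fcer1a and Ms4a2 were above background on neither array, and Cma1, like the lymphocyte marker Pax5, in C57BL6/N lung alone. All 10 alveolar type 2 markers, beside Ctsh, were below 0, from -0.55 for Slc34a2 to -0.01 for Sftpd, with a summed signal of 659 and 520. Their part in the value of Ctsh was not tested.

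Stromal and other markers differed as well. Again 10.3% of all genes were at least 1.5-fold higher, 8.27% at least 1.5-fold lower and 46.1% above 0. Of 14 fibroblast and myofibroblast markers, 10 were at least 1.5-fold higher, from -0.31 for Postn to 2.54 for Grem1, with a summed signal of 160 and 263. Endothelial markers were all below 0, from -1.10 for Tie1 to -0.27 for Vwf, with a summed signal of 231 and 145. Alveolar type 1 markers ran from -1.08 for Cav1 to 0.02 for Pdpn (summed signal 128 and 87.0), dendritic cell markers from -0.74 for Cd209a to 0.32 for Xcr1 (4.10 and 3.38), and the 9 lymphocyte markers had a median of -0.19, with Cd247 highest at -0.04 (10.1 and 7.19). Of 11 airway markers, 7 were past 1.5-fold upwards and 0 downwards, with a median of 2.46, from -0.26 for Tppp3 to 8.31 for Clca1. Their sum of 394 and 393 is mostly that of Scgb1a1 (371107 and 360194) and Cyp2f2 (127376 and 143510). Heart muscle markers, from 1.32 for Actc1 to 7.09 for Myh6, summed to 4.98 and 36.8, and fat markers, from 0.17 for Lipe to 9.62 for Cfd, to 0.302 and 20.1. The part of these cell types in the lysosomal values was not tested. Mb and Sln of the heart muscle list and Adipoq, Pck1 and Plin1 of the fat list stood above background in transgenic lung alone.

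**Figure D3:**
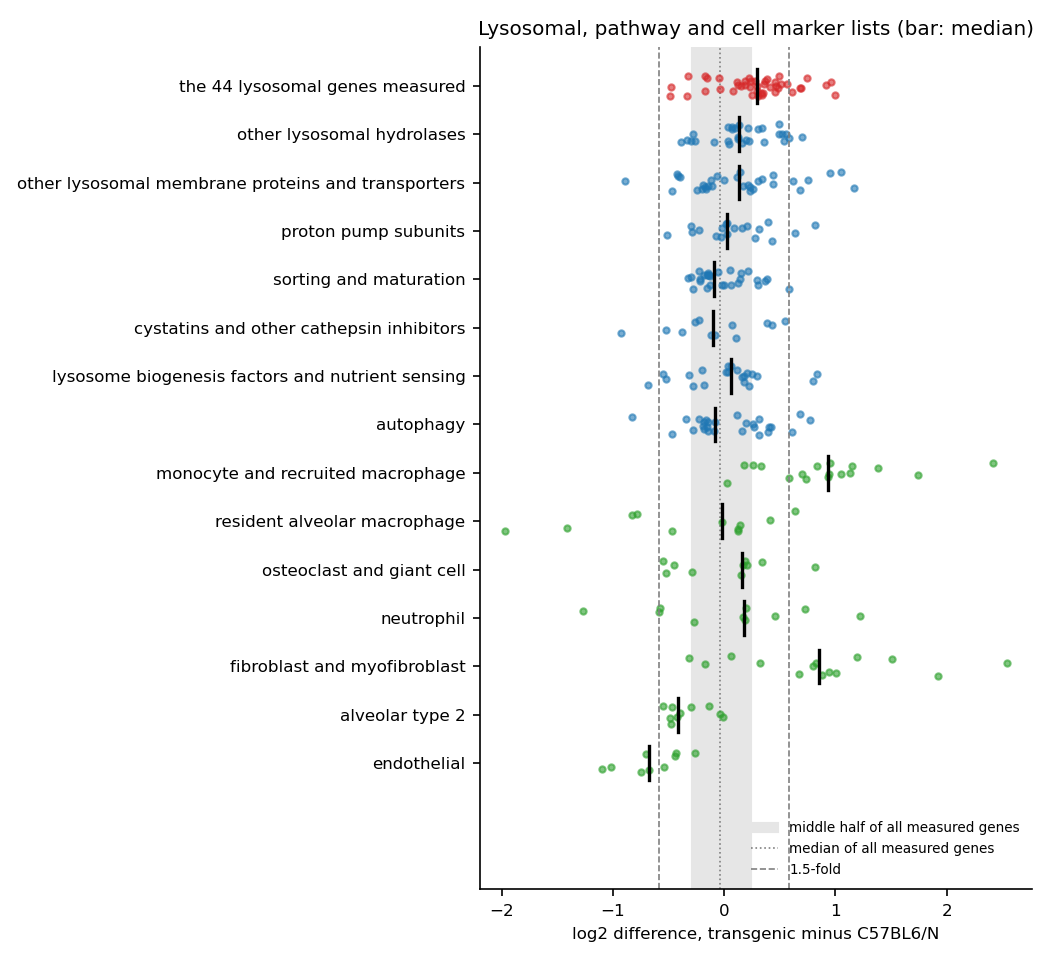
Log2 difference (transgenic minus C57BL6/N) of every measured gene of the lysosomal list (red), of 7 lists of other lysosome and autophagy genes (blue) and of 7 cell marker lists (green). Bars are medians, the grey band spans the quartiles of all measured genes, and the dashed lines are 1.5-fold. The lysosomal median (0.30) lies above the blue medians (-0.10 to 0.13) and below those of recruited macrophage (0.93) and fibroblast markers (0.85).

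The promoters of the lysosomal genes were searched for the E-box that TFEB is known to bind. RefSeq promoter windows of assembly GRCm38.p6, 300 bases from 250 before to 50 after a gene's start, were given for 40 of the 45 genes. Asah1, Ctsb, Ctsh, Npc1 and Aga had no entry. Of the 40, 5 had more than 1 window, and a gene held a motif when any of its windows did. Ctsa and Lgmn each also have a window with no E-box, not printed. The motifs searched were the E-box CACGTG, which reads the same on both strands, the E-box with T before or A after it (TCACGTG or CACGTGA, which are each other's reverse complement), with both (TCACGTGA), and the 10-base palindrome GTCACGTGAC. Each longer motif contains the shorter ones. Below are 6 windows, those of Ctsd, Ctsa and Mcoln1 because they hold TCACGTGA, that of Lamp1 because it holds 4 E-boxes (chosen after this was seen), and those of Gusb and Ctsc because they lead their roles past 1.5-fold and hold none. Acp5, which also leads its role, has 3 windows with no E-box, not printed. Capitals mark the E-boxes.
Ctsd, chr7:142387778-142388077, minus strand: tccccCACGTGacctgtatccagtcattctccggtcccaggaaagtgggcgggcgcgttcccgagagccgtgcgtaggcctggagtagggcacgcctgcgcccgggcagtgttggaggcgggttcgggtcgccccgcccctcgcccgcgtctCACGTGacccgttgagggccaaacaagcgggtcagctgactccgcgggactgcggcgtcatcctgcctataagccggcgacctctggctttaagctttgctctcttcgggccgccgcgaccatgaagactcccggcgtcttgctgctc
Ctsa, chr2:164833523-164833822, plus strand: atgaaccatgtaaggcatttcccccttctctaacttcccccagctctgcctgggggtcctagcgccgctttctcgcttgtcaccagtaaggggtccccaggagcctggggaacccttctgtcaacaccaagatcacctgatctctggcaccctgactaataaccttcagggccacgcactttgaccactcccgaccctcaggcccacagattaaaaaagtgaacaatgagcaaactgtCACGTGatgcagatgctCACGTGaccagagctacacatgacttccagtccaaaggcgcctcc
Mcoln1, chr8:3500269-3500568, plus strand: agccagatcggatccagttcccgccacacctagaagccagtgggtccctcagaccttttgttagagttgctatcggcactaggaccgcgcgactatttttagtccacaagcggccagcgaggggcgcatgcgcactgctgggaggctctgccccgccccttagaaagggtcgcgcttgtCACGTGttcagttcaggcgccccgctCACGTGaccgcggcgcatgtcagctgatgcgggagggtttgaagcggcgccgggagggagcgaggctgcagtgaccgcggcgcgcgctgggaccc
Lamp1, chr8:13158911-13159210, plus strand: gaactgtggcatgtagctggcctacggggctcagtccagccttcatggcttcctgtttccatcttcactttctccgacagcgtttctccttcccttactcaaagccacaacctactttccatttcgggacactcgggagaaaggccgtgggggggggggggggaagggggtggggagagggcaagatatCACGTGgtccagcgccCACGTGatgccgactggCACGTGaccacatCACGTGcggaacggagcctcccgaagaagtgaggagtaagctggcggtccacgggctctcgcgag
Gusb, chr5:130003000-130003299, minus strand: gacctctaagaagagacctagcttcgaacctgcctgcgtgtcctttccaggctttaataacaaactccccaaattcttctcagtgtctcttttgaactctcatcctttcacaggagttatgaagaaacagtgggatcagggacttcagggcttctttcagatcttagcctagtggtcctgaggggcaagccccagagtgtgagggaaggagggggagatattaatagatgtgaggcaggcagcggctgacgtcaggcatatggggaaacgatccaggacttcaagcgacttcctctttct
Ctsc, chr7:88277835-88278134, plus strand: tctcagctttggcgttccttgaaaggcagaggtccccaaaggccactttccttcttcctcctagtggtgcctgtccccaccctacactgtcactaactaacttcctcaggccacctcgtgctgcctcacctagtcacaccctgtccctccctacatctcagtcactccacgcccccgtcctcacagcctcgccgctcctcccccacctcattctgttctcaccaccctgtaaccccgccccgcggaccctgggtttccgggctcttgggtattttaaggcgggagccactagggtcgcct

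For the other 8 genes with an E-box, the E-box is shown in capitals with 10 bases on each side.
Glb1, chr9:114401020-114401045, plus strand: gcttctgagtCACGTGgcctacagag
Naglu, chr11:101070011-101070036, plus strand: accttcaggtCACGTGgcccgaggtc
Lgmn, chr12:102439126-102439151, minus strand: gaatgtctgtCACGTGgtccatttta
Gaa, chr11:119267813-119267838, plus strand: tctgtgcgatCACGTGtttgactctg
Sgsh, chr11:119355524-119355549, minus strand: gcctgccgtgCACGTGaccgtgggga
Arsa, chr15:89477425-89477450, minus strand: aactcagtgtCACGTGttgtctgctc
Ctsf, chr19:4855076-4855101, plus strand: ccccgtggtcCACGTGcctcgcgtaa
Ctsl, chr13:64370741-64370766, minus strand: cgttagaagcCACGTGctgatctaaa

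The E-box was held by 12 of the 40 genes (30.0%), against 8.09% of 27025 genes in the promoter table. Among genes measured on both arrays the shares were 30.8% of 39 lysosomal genes and 10.8% of 12287 genes. With T before or A after it, 10 of 40 (25%) held it, against 4.29% of all genes, and with both, 3 of 40 (7.5%) against 1.12%. The full palindrome was in no window of the 40 genes and in 0.370% of all genes. The 12 genes held 18 E-boxes, 14 of them within the 100 bases before the start.

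The 12 genes with an E-box had a median of 0.33 and the 27 measured genes without it a median of 0.29. Over all measured genes the medians were -0.02 with it and -0.04 without it. Ctsd, whose TCACGTGA holds an E-box that begins 98 bases before the start, was at 0.99, whereas Mcoln1, with the same letters, was at -0.33, and Lamp1, with 4 E-boxes, at -0.17. Ctsa, with TCACGTGA on either side of its start, was at 0.47. The windows of Gusb, Ctsc, Acp5 and Ppt1, all past 1.5-fold, held no E-box. A match is a description of the letters and not a bound site.

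**Figure D4:**
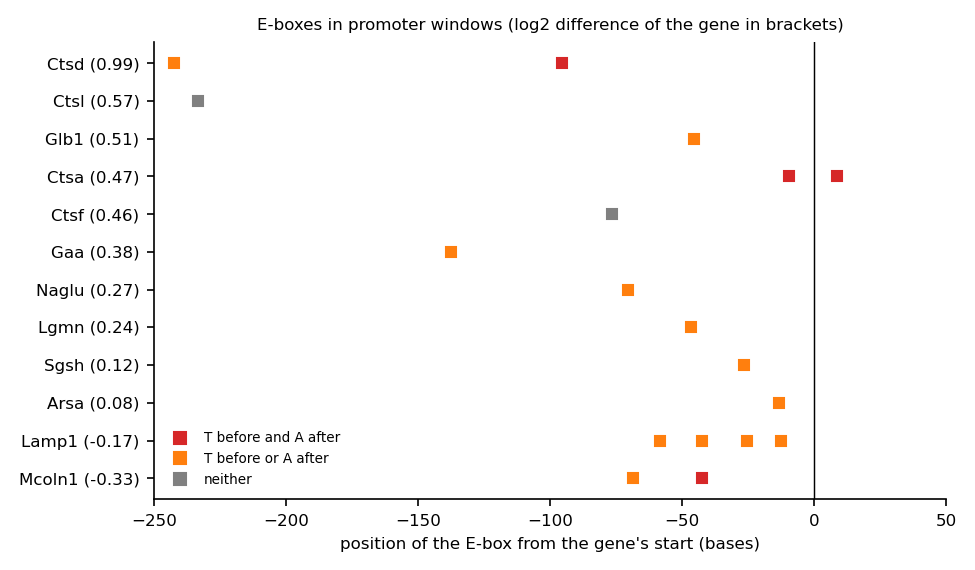
Position of each E-box (x axis, bases from the gene's start, with the start at the vertical line) in the 12 lysosomal genes that hold one, ordered by log2 difference, which stands in brackets. Red marks E-boxes with T before and A after, orange those with T before or A after, grey the others. Most lie within 100 bases before the start, in genes from 0.99 (Ctsd) to -0.33 (Mcoln1).

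Under 10 of 11 alternative ways of processing the arrays, 7 or 8 lysosomal genes were at least 1.5-fold higher and 0 lower. The shares over all genes changed with the setting. With no filter on dim probes they were 12.2% higher and 9.93% lower. With normexp without the spots whose local background reached their signal they were 6.33% and 4.41%. Aga and Npc1 were at least 1.5-fold higher under all 11 alternatives, and Ctsc, Gusb and Acp5 under 10. Among the 11 is normexp on all spots, where 50.3% of all genes were at least 1.5-fold higher, so passing there says little of a gene. Ctsd passed under 9, being at 0.28 with its brightest probe alone. Ppt1 passed under 10, and was at 0.52 with the added normexp correction. Fuca1 was at 0.76 with its brightest probe. The setting that stood apart was normexp on all spots, in which 3 of the 7 genes passed, Ctsc was at -0.09 and Acp5 at -0.14. In that setting the median of all genes was 0.60, and the lysosomal median was -0.34.

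**Figure D5:**
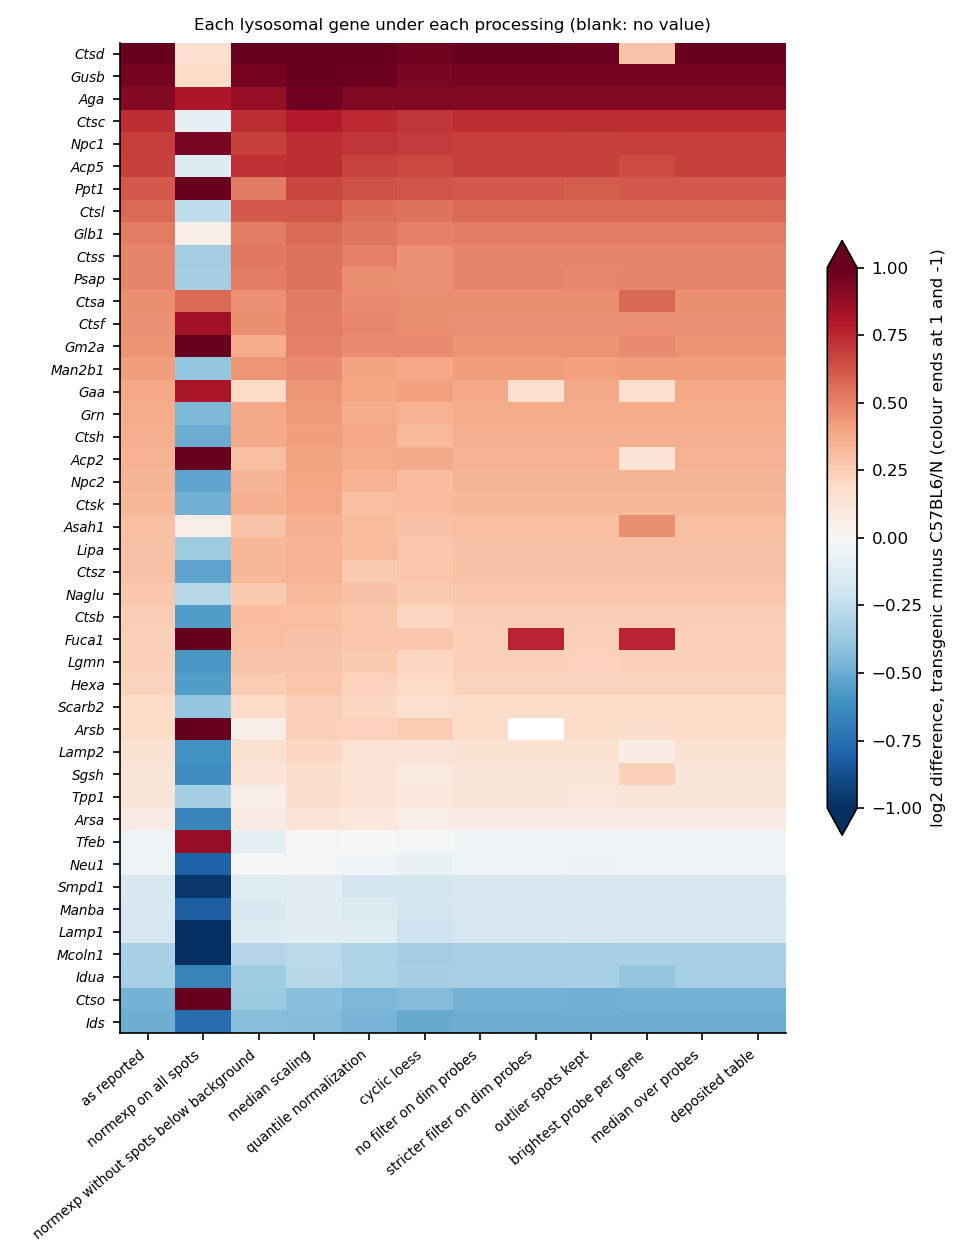
Log2 difference (transgenic minus C57BL6/N) of each lysosomal gene, in rows from highest to lowest, under the reported processing and 11 alternatives in columns, with red for higher and blue for lower in the transgenic lung. The column of normexp on all spots stands apart, and single squares differ for genes with 2 probes (Ctsd, Fuca1, Gaa, Acp2).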

How the data were processed

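Each sample was hybridised to a 1-colour array after labelling of amplified complementary RNA with Cy3, per the labels. Per the file headers, the deposited array files hold intensity per spot from Agilent Feature Extraction 11.5.1.1, background-subtracted and detrended within the array and not normalized between arrays. Control and outlier flags, in columns of other kinds, are also per the file headers. The deposited series table is intensity on a linear scale, and on each array 39012 single-spot probes matched the scanner signal to within 0.1%, so its scale is linear and uncentred (column medians 111 and 118).

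Control and outlier spots were left out, log2 signals of a probe's spots averaged, and the 75th percentile over all non-control probes subtracted. A probe was usable when at least 50% of its spots were well above background and none was saturated, on both arrays. Usable probes of a gene were averaged. Differences are transgenic minus C57BL6/N. Of 39429 probes, 27508 mapped by RefSeq accession to a symbol in a GRCm38.p6 table, and since the array grid names mm9 the table gave names alone. With 1 array per group no test was run. Named genes were all members, pathway genes past 1.5-fold (up to 3 each way), the highest and lowest marker of each list and the label checks, and further genes named were chosen after their values were seen. Members and lists were chosen with earlier results of these data known. Some genes of the lists are not reported here by name. The steps were tested on simulated data. Alternatives are given in the closing section. Python 3.11.15 did the work with pandas 2.3.3, numpy 2.4.6 and, for plots, matplotlib 3.10.9. The alternative normalizations came from limma 3.58.1 in R 4.3.3.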

Additional observations from a re-analysis of the deposited data

How the results depend on the processing

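In all, 11 alternatives were run, 1 of them chosen after seeing the data (normexp without the spots whose local background reached their signal). The normexp on all spots used median signals, as the files hold no mean signal. Its background estimate on the transgenic array included 6 spots whose background was no lower than the spot itself (highest background 217431, median over spots 33.5). With it, 11 members were at least 1.5-fold higher and 10 lower, where 50.3% and 18.9% of all genes were. At 2-fold 6 members were higher and 2 lower, against 40.7% and 4.79% of all genes. Above 0 were 16 members, against 64.4% of all genes. The median over the members was -0.34, where the median of all genes was 0.60. Ctsc turned to -0.087 and Acp5 to -0.14. The cause of these changes was not tested. Under the 10 other alternatives the median over the members ran from 0.29 to 0.35, 7 or 8 were at least 1.5-fold higher and 0 lower. The share of all genes at least 1.5-fold higher was 6.33% with the added normexp and 12.2% with no filter on dim probes. The shares at least 1.5-fold lower were 4.41% and 9.93%, in that order. At least 2-fold higher was 1 member with the added normexp, 2 with median scaling and 1 with quantile normalization, where the reported count was 0. Over all genes 1.97%, 4.27% and 4.08% were, in that order. Of the 7 genes past 1.5-fold, all 7 were shared by 8 alternatives, and 6 by the added normexp (without Ppt1) and by the brightest probe per gene (without Ctsd). The slide was no block, as both arrays lay on 1. No paired analysis was possible because each group has 1 array. All 56 probes were well above background, so the reported filter removed no member. A stricter filter kept only probes above the median signal of both arrays. With it Fuca1 also passed 1.5-fold, and Arsb, whose probes are dim, had no value. The technical SD was 0.17 for dim probes and 0.09 for others.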
